A study of Mus musculus with 2 samples.

Results

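The 9 genes described here encode the mouse major histocompatibility complex (MHC) class I molecule: the classical heavy chains H2-K1 and H2-D1, 6 non-classical heavy chains (H2-Q4, H2-Q6, H2-Q7, H2-T22, H2-T23 and H2-M3), and the light chain B2m. They were taken from a list by symbol, all 9 were found among the 31053 genes of both libraries, and no measured value entered the choice. RNA of single cells was counted in tongue squamous tumours raised with the carcinogen 4NQO in wild type C57BL/6 mice, a model of head and neck cancer. The animals then received either JQ1, which blocks the binding of BET bromodomain proteins to acetylated histones, or control for 10 days, and 1 library of the whole tumour cell suspension was made per treatment. The labels give no sex, age, vehicle, dose or number of mice per library.

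A class I molecule is a heavy chain paired with B2m that holds a short peptide from proteins made inside the cell. Peptides are cut by the proteasome and pumped into the endoplasmic reticulum by TAP, a dimer of Tap1 and Tap2, where tapasin (Tapbp) helps to load them. CD8 T cells read the classical molecules H2-K and H2-D, and loss of this display is a known route by which tumours avoid T cells. The non-classical chains vary little between animals and have narrower roles. H2-T23 encodes Qa-1, which is read by the CD94 and NKG2 receptors of natural killer cells. H2-Q7 belongs to the Qa-2 group, H2-M3 presents formylated bacterial peptides, and H2-T22 is a ligand of some gamma delta T cells. Transcription of these genes is known to depend on the coactivator Nlrc5 and to rise with interferon through Irf factors.

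With 1 library per treatment no difference below carries a test or a replicate error, and cells of a library were not treated as replicates. Values are UMIs of a gene divided by the UMIs of all genes in the same class and library, as counts per 1000000 (CPM), with 95% exact intervals for counting error alone. Differences between mice or between preparations are outside them. A gene was called higher or lower at 1.5-fold or more, provided that the libraries together gave it 20 UMIs and the higher of them 10 CPM ("measured"). A gene under 10 CPM in 1 library thus counts as measured only through the other, where it is higher. Depth was 118382532 UMIs over 9754 barcodes for control and 99565417 UMIs over 16233 barcodes for JQ1. Filters left 8150 cells in control, with a median of 11302.5 UMIs, and 14044 in JQ1, with a median of 3879 UMIs. The libraries shared 40 barcode sequences. Epithelial-like cells were 64.3% of kept control cells and 9.93% of kept JQ1 cells, so a value over all cells would mostly describe this change in mix and all values below are within a class. Class names are by resemblance and were rebuilt here from marker genes. Summed over its own marker list, each class stood at 6616 CPM (T-like) to 136500 CPM (gland-like) in control. The JQ1 range was 5082 CPM (T-like) to 140300 CPM (gland-like).

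Both libraries held cells of more than 1 genetic sex, which the labels do not mention and which matters for the results on keratinocytes below. Among epithelial-like cells, 3773 control and 653 JQ1 cells had UMIs of Xist, the RNA of the inactive X chromosome, and none of 4 Y-linked genes (Ddx3y, Uty, Eif2s3y and Kdm5d). Another 854 control and 333 JQ1 cells had Y-linked UMIs and no Xist, and 502 and 383 cells had neither. A further 114 control and 25 JQ1 cells had both. These sets are by UMIs seen, so cells with neither or both are not assigned to a sex. RNA from broken cells was present at a low level: the keratins Krt5, Krt14 and Krt6a stood at 1.02% to 5.07% of their library-wide level in the 8 non-epithelial classes of control, and at 2.50% to 6.99% in those of JQ1.

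All 9 genes are protein coding, and 8 lie in the MHC region of chromosome 17 (GRCm38, GENCODE M21). The classical genes are H2-K1 (ENSMUSG00000061232, chr17:33996017-34000347, minus strand) and H2-D1 (ENSMUSG00000073411, chr17:35262730-35267499, plus strand), which flank the class II and class III genes. H2-Q4 (ENSMUSG00000035929, chr17:35379617-35385290), H2-Q6 (ENSMUSG00000073409, chr17:35424850-35430055) and H2-Q7 (ENSMUSG00000060550, chr17:35439155-35443773) follow on the plus strand. H2-T23 (ENSMUSG00000067212, chr17:36029773-36032855) and H2-T22 (ENSMUSG00000056116, chr17:36037128-36042747) are on the minus strand, and H2-M3 (ENSMUSG00000016206, chr17:37270220-37274484) is on the plus strand. B2m (ENSMUSG00000060802, chr2:122147686-122153083, plus strand) is the exception on chromosome 2.

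The stretches just before 6 start sites are shown. H2-K1, H2-D1, H2-Q7, B2m and H2-T23 were all called higher in the stress-type and suprabasal tongue cells described below. H2-T22 was called higher in both as well (1.78 and 2.32) but is not printed. H2-M3, which was under the level for measurement there, is shown for comparison. Each is the stretch directly upstream of the start site in RefSeq (GRCm38.p6), read 5′ to 3′ on the gene's own strand: chr17:34000348-34000522 for H2-K1 (minus strand), chr17:35262919-35263093 for H2-D1 (plus strand), chr17:35438980-35439154 for H2-Q7 (plus strand), chr2:122147512-122147686 for B2m (plus strand), chr17:36032702-36032876 for H2-T23 (minus strand) and chr17:37270059-37270233 for H2-M3 (plus strand). Capitals mark letters that match a searched motif on either strand.

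H2-K1: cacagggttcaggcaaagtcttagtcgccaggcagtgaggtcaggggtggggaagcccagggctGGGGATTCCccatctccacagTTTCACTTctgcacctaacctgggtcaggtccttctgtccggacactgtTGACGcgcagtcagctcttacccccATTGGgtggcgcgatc
H2-D1: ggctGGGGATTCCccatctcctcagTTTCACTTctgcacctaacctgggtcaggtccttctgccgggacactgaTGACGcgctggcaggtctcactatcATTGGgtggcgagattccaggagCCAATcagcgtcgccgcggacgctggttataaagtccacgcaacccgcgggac
H2-Q7: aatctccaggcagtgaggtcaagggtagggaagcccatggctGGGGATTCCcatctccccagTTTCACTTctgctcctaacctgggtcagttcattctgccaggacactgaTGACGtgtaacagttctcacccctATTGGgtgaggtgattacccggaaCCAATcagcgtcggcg
B2m: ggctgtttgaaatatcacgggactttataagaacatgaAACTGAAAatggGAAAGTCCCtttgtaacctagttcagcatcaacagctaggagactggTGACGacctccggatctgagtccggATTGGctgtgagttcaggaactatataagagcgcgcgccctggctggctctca
H2-T23: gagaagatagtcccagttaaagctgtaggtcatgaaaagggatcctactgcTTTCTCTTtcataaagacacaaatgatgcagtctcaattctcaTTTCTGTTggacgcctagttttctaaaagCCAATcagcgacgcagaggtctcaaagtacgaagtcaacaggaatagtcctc
H2-M3: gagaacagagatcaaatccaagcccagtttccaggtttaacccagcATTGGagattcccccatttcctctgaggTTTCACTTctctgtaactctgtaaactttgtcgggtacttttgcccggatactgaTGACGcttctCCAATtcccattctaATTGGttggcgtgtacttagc

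Searched were GGGNNTTNC (the first letters of a kappa B site), AANNGAAA (an IRF-type site), TGACG (a CRE half-site) and CCAAT, on both strands, in the 250 bases before each start. The kappa B letters were settled after the windows had been seen. They stood before 6 of the 9 genes (H2-K1, H2-D1, H2-Q4, H2-Q6, H2-Q7 and B2m) and before 3503 of 27025 RefSeq promoters (13.0%). IRF-type and CCAAT letters stood before all 9 genes, against 21.6% and 34.5% of promoters. The CRE half-site stood before 7 of 9, all but H2-Q6 and H2-T23, against 17.9% of promoters. In H2-K1, H2-D1 and H2-Q7 the kappa B, IRF-type and CRE letters followed each other in the same order, beginning 111, 90 and 41 bases before the start in H2-K1. The B2m window held IRF-type, kappa B, CRE and CCAAT letters beginning 137, 125, 78 and 53 bases before the start. H2-T22, whose stretch is not printed, had no kappa B letters, and its IRF-type and CRE letters began 191 and 22 bases before the start. A match describes letters only and is no evidence of binding.

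How far the 3′ tags counted here can be assigned to a single gene depended on the member and on the length compared. Of the 311 stretches of 90 bases in the last 400 bases of the transcripts, none was shared with another gene for H2-K1, H2-D1, H2-Q7, H2-M3 or B2m. H2-T22 shared 33.8% with H2-T10, which is not among the counted genes, so its value may include H2-T10 reads. H2-T23, H2-Q4 and H2-Q6 shared 16.1%, 12.5% and 7.72% with unrelated genes. With stretches of 50 bases the shared part was 63.5% for H2-T22, 40.2% for H2-Q6, 38.5% for H2-Q4, 36.2% for H2-T23 and 12.3% for H2-D1. It was 0.57% for H2-K1 and H2-Q7, and H2-M3 and B2m shared none.

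Class I RNA differed more between cell classes than between the libraries. H2-K1 and H2-D1 together were highest in T-like cells, at 5583 CPM in control and 5731 CPM in JQ1. Macrophage or monocyte-like cells followed at 3187 and 3943 CPM, from 47 control and 137 JQ1 cells, and endothelial-like cells at 2128 and 3426 CPM. T cells and macrophages are leukocytes, and endothelial cells line vessels. Neutrophil-like cells stood at 2219 and 1670 CPM, gland-like cells (the mucous and serous cells of minor salivary glands) at 1729 and 1842 CPM, and fibroblast-like cells at 1606 and 2200 CPM. Epithelial-like cells, which include the tumour keratinocytes, stood at 1198 and 2131 CPM. Pericyte or smooth muscle-like cells were lowest of the classes with at least 50 cells in both libraries, at 772 and 1766 CPM. Among the JQ1 classes the order near the bottom changed, with pericyte-like (1766 CPM) and neutrophil-like cells (1670 CPM) close together. Erythroid-like cells, seen in JQ1 only (181 cells), held 245 CPM.

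**Figure D1:**
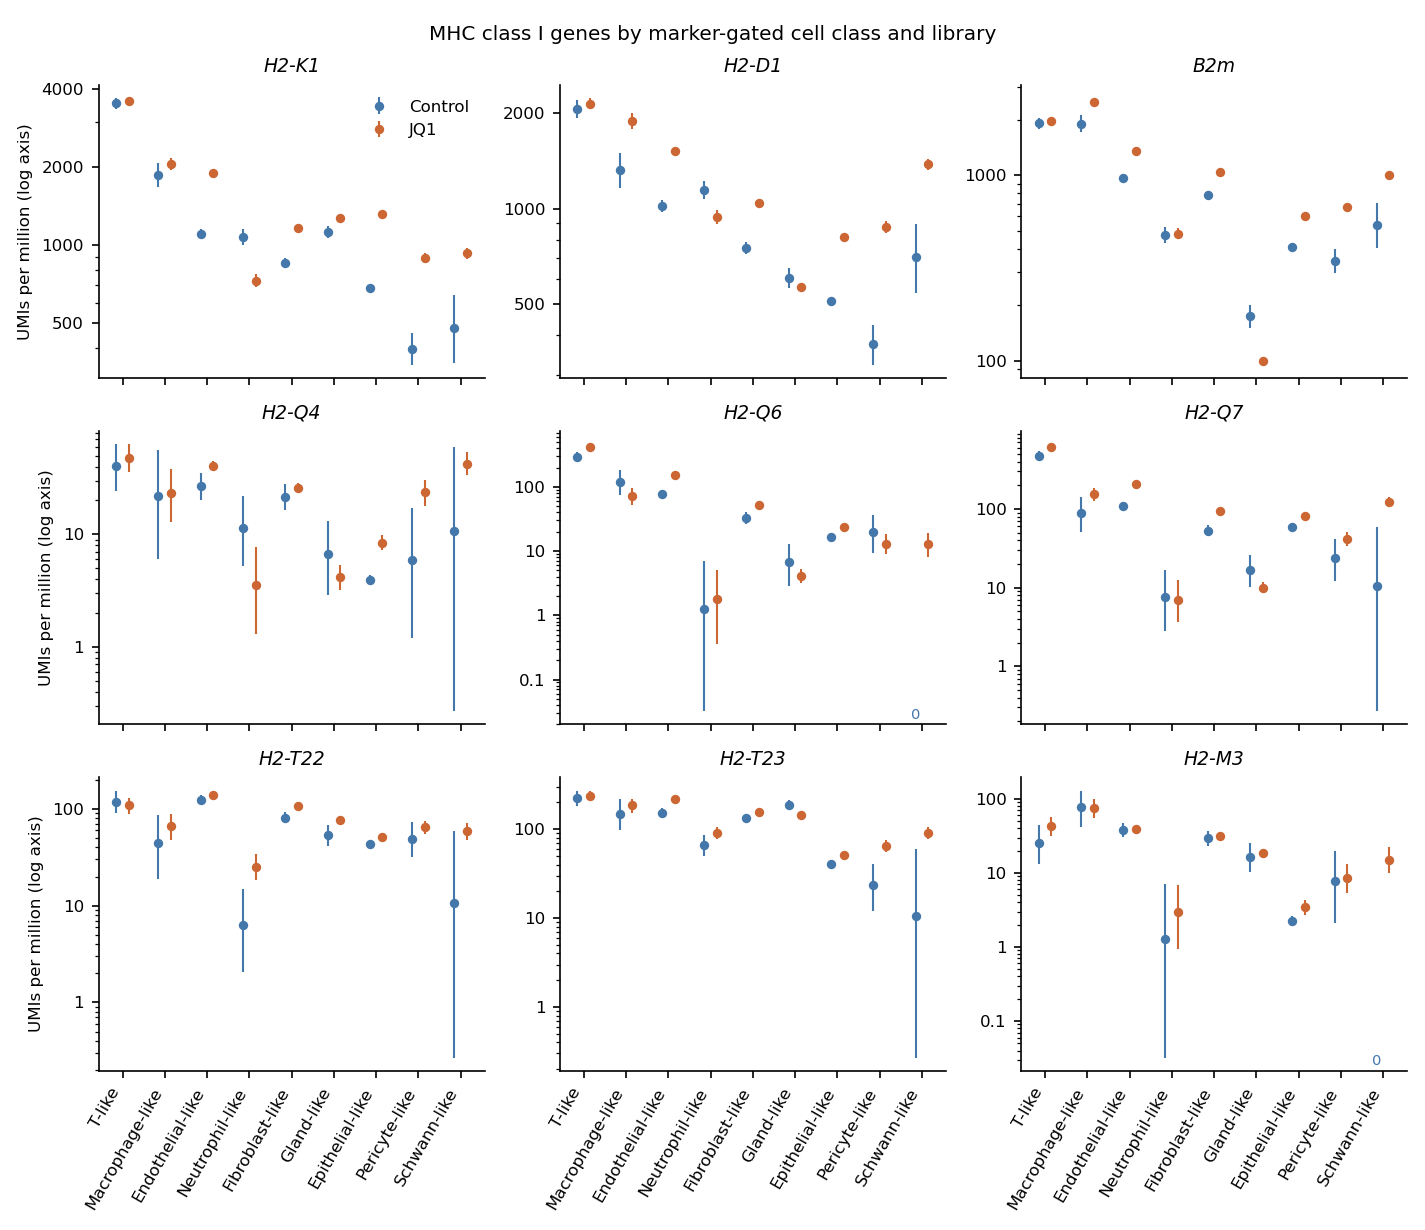
CPM of each of the 9 genes (log axis) in 9 marker-gated cell classes of the control and the JQ1 library, with 95% Poisson intervals that cover counting error only; a 0 at the axis marks a library without a UMI. T-like cells were highest for H2-K1 in both libraries (3526 and 3589 CPM), and gland-like cells were lowest for B2m (174 and 99.9 CPM).

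Shares of cells were counted for H2-K1 alone, so their order is not directly comparable with that of the pair. After thinning each cell to 1000 UMIs, H2-K1 was detected in 93.6% of control and 92.0% of JQ1 T-like cells, the highest shares here too, and in 61.4% and 76.0% of endothelial-like cells. Gland-like cells, at 67.9% and 73.8%, stood above endothelial-like and neutrophil-like cells (57.8%) in control and above fibroblast-like cells (55.2%) in JQ1. Their CPM of the classical pair was below those, but H2-K1 was a larger part of the pair in gland-like cells. In epithelial-like cells the share was 43.6% (42.2 to 44.9) in control against 56.5% (53.8 to 59.2) in JQ1. At full depth the epithelial shares were 93.5% and 91.5%, at median depths of 17287 and 11915 UMIs. Erythroid-like JQ1 cells, red cell precursors that lose class I as they mature, gave 10.11% at the thinned depth (median 4768 UMIs unthinned) and serve as the background level. Of thinned epithelial-like cells, 39.9% in control and 30.01% in JQ1 had no UMI of either classical gene.

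In epithelial-like cells (5243 control, 1394 JQ1), the classical pair stood 1.78-fold higher in the JQ1 library (1.76 to 1.80). H2-K1 was at 686 CPM in control and 1315 CPM in JQ1, a ratio of 1.92 (1.89 to 1.94). H2-D1 was at 513 and 816 CPM, a ratio of 1.59 (1.56 to 1.62). B2m, at 409 and 606 CPM, came to 1.48 (1.45 to 1.51), just under the limit. The light chain thus differed less than the classical heavy chains it pairs with.

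As a sum, the non-classical chains differed less than the classical pair and B2m. It was 166 CPM in control and 219 CPM in JQ1, a ratio of 1.32 (1.27 to 1.36), whose interval did not reach that of the classical pair. H2-Q7 went from 59.6 to 80.5 CPM (1.35), H2-Q6 from 16.3 to 23.5 CPM (1.44), H2-T23 from 40.8 to 51.9 CPM (1.27) and H2-T22 from 43.2 to 50.9 CPM (1.18). H2-Q4 (3.96 and 8.44 CPM) and H2-M3 (2.27 and 3.47 CPM) were under the level for measurement, and their ratios were not low: 2.13 (1.78 to 2.56), the highest of the 9 genes, and 1.53 (1.16 to 2.001). Thus 2 of 7 measured members were called higher and 0 lower, where 8.15% of all 8099 measured genes were called higher and 6.78% lower. The median log2 ratio of the 7 was 0.52, against 0.02 over all measured genes. The lists of genes were chosen with earlier results of these data known, so these counts are descriptions.

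Immune cells within the epithelial gate were rare by RNA. Ptprc, the leukocyte common antigen, was at 0.279 CPM in control and 0.579 CPM in JQ1 epithelial-like cells, against 281 to 607 CPM in the T-like, macrophage-like and neutrophil-like classes. The summed levels of the T, macrophage, dendritic and neutrophil lists in epithelial-like cells were 71.8, 4.76, 0.379 and 15.3 CPM in control. In JQ1 they were 12.5, 9.12, 0.627 and 45.0 CPM. Of these markers, 1 of 9 T markers was at 0 in each library, 1 of 9 macrophage markers at 0 in control, 3 of 8 dendritic markers in control and 5 of 8 in JQ1, and none of the 11 neutrophil markers. Gland RNA was higher in JQ1, with Muc5b at 7.24 and 210 CPM. The part of these in the class I values was not tested.

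The genes that make peptides available showed a narrower difference than the classical chains. Of 12 measured members of the peptide loading list in epithelial-like cells, 3 were called higher and 0 lower. Over all measured genes 8.15% were higher and 6.78% lower. Tap1 went from 35.2 to 68.0 CPM (1.93) and Tap2 from 18.4 to 30.4 CPM (1.65). Psmb9, an interferon-induced proteasome subunit, went from 27.9 to 44.8 CPM (1.61), and Tapbp came next at 61.3 and 88.2 CPM (1.44). The general chaperones of the list lay near 1, with Canx at 1.09 and Pdia3 at 0.978. Of 17 measured regulators 4 were called higher and 0 lower. Those called higher included Nlrc5 from 6.19 to 11.3 CPM (1.82), Stat2 from 7.46 to 12.5 CPM (1.68) and Irf9 from 14.3 to 23.01 CPM (1.61). Nlrc5 and Stat2 reached 10 CPM in JQ1 alone and were measured only through the library where they were high. The count of 4 thus leans on the filter. Irf1, another interferon-induced factor, stood at 92.1 and 89.8 CPM (0.975). The interferon gamma receptor chain Ifngr2 was at 19.1 and 12.9 CPM (0.676). Among other class I-like genes 1 of 17 was measured, Procr at 62.3 and 62.0 CPM (0.994). Of 5 listed stress ligands, which mark cells for the NKG2D receptor, H60c alone was measured, at 32.4 and 36.9 CPM (1.14).

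**Figure D2:**
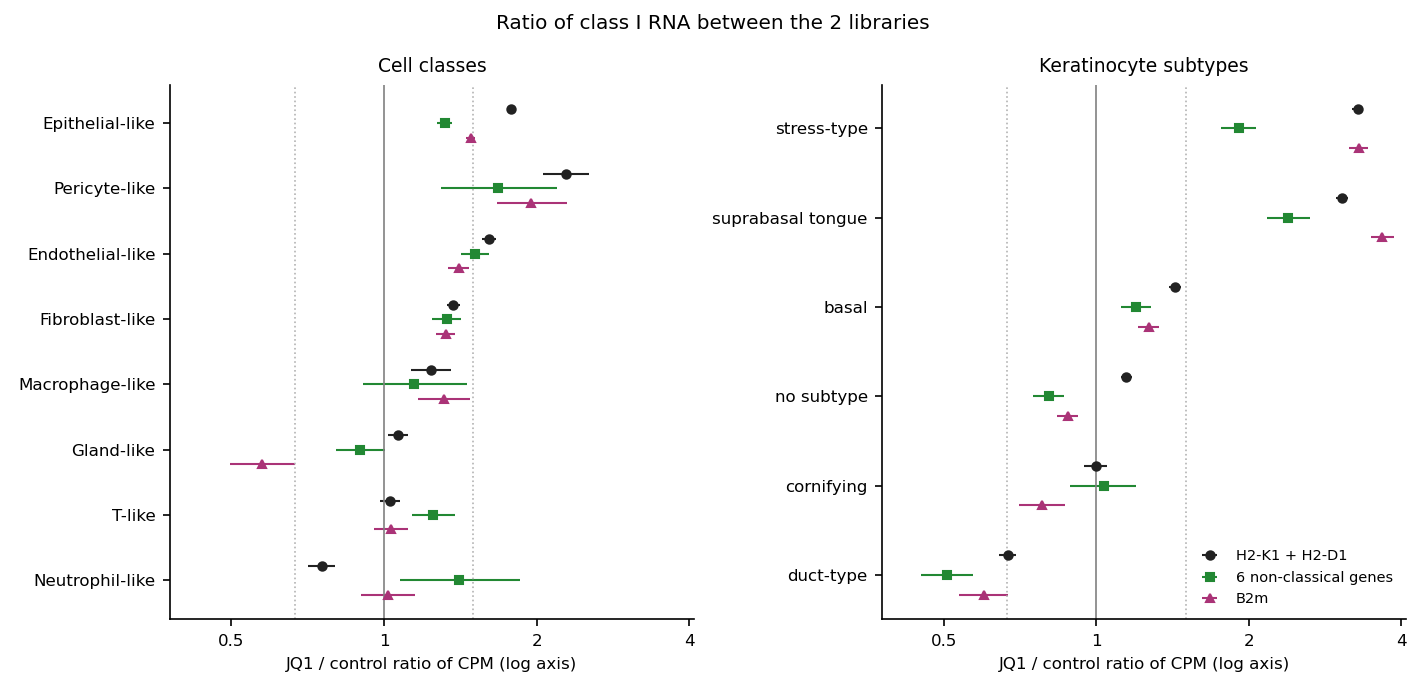
JQ1 over control ratio of CPM (log axis) with 95% exact conditional intervals for H2-K1 + H2-D1, the 6 non-classical genes and B2m, in 8 cell classes (left) and 6 keratinocyte subtypes (right); dotted lines mark 1.5-fold. The classical ratio was 3.28 in stress-type and 3.05 in suprabasal tongue cells, 0.997 in cornifying and 0.668 in duct-type cells.

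Within the epithelial-like class the difference was uneven over keratinocyte subtypes. Subtypes were scored from markers and are ranges rather than types: 31.8% of control and 36.3% of JQ1 cells lay near a cut. Stress-type cells express the wound keratins Krt6a, Krt6b, Krt16 and Krt17. In 920 control and 129 JQ1 cells of this kind the classical pair went from 1077 to 3527 CPM, a ratio of 3.28 (3.20 to 3.36). H2-K1 had the largest ratio of the measured members, from 620 to 2215 CPM (3.57), ahead of H2-D1 from 457 to 1312 CPM (2.87). B2m went from 365 to 1202 CPM (3.29), close to the classical pair. The 6 non-classical genes came to 1.91 (1.76 to 2.07), so they lagged here as well. In this subtype 6 of 7 measured members were called higher, where 13.1% of all measured genes were higher and 6.36% lower. The median log2 ratio was 1.09 over the members and 0.14 over all genes. H2-Q6, from 15.1 to 22.6 CPM (1.496), was the member left just under the limit.

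Suprabasal tongue cells express the keratins of the differentiating tongue lining (Krt13, Krt4, Krt76). In 502 control and 224 JQ1 cells the classical pair went from 1034 to 3160 CPM, a ratio of 3.05 (2.97 to 3.14). B2m went from 286 to 1047 CPM (3.67, 3.49 to 3.86), a larger ratio than that of the classical pair, which is the reverse of the order over all epithelial-like cells. Here H2-Q6 went from 5.60 to 21.9 CPM (3.91) and H2-Q7 from 21.02 to 59.6 CPM (2.83). H2-T22 went from 36.2 to 84.2 CPM (2.32), and H2-T23 from 29.1 to 55.1 CPM (1.89). All 7 measured members were called higher, where 15.3% of all measured genes were higher and 4.17% lower. The median log2 ratio was 1.503, against 0.16 over all genes. H2-Q6, among the 7, reached 10 CPM in JQ1 alone.

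The other subtypes showed smaller or opposite differences. Basal cells, the dividing layer marked by Krt5, Krt14 and Krt15, went from 1174 to 1679 CPM of the classical pair (1.43, 1.39 to 1.47). There 2 of 8 measured members were called higher, H2-Q4 (2.001) and H2-Q6 (1.54), and 0 lower, where 10.8% of all genes were higher and 4.55% lower. Cornifying cells, the outermost layer, stood at 1397 and 1392 CPM (0.997), with H2-Q4 called higher and H2-Q6 lower of 8. The background there was 27.9% higher and 6.54% lower. Cells without a subtype came to 1.15 for the classical pair, 0.805 for the non-classical genes and 0.877 for B2m, with 1 of 8 members called lower (H2-T22, 0.610), and 0 higher, against 2.47% and 12.0% of all genes.

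Duct-type cells, which express the simple keratins Krt7, Krt8, Krt18 and Krt19, went the other way. The classical pair was at 1958 CPM in control and 1308 CPM in JQ1 (0.668, 0.642 to 0.695). Of 7 measured members 5 were called lower and 0 higher. However, 56.0% of all measured genes were called lower and 2.74% higher in this subtype, and the median log2 ratio of the members (-0.72) was near that of all genes (-0.66). The Krt42 and Stmn2 type had 1257 control cells at 985 CPM and only 11 JQ1 cells, too few to compare.

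The peptide loading list had 9 of 13 genes called higher in stress-type cells, where 13.1% of all measured genes were, and 6 of 12 in suprabasal tongue cells, where 15.3% were. In basal cells it was 1 of 12, near the 10.8% of all genes, and in cornifying cells 0 of 12, against 27.9%. In stress-type cells Tap1 went from 32.6 to 106 CPM (3.26), and Psmb8, an interferon-induced proteasome subunit, from 49.4 to 119 CPM (2.40). Nlrc5 went from 5.64 to 16.0 CPM (2.84), while Irf1 went from 70.2 to 40.2 CPM (0.573) and was the single regulator called lower. These ratios did not all hold in stress-type cells with Xist alone (525 control and 36 JQ1), a split described below. There Psmb8 came to 0.520 (0.335 to 0.774) and Psmb9 to 0.511, whereas Tap1 came to 1.46, Tap2 to 1.235 and Nlrc5 to 2.15. Ptprc was at 0.235 CPM in control and without a UMI in JQ1 stress-type cells, and at 0.216 and 0.296 CPM in suprabasal tongue cells. The summed macrophage or monocyte markers were higher in JQ1 in both, at 4.98 and 13.1 CPM (2.64, 1.72 to 3.94) in stress-type and at 3.45 and 13.04 CPM (3.78, 2.34 to 6.16) in suprabasal tongue cells. Neutrophil markers came to 11.5 and 14.4 CPM (1.247, 0.849 to 1.78) and to 13.04 and 21.6 CPM (1.66, 1.22 to 2.24). The part of these markers in the class I values was not tested.

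In the suprabasal tongue subtype the high values were carried by a minority of cells. In JQ1 suprabasal tongue cells, 19 of 224 (8.48%) held 50% of the classical UMIs, against 121 of 502 (24.1%) in control. The median cell there was at 949 CPM in control and 1144 CPM in JQ1, whereas the upper quartile was at 1539 and 3281 CPM. In stress-type cells the shift was broader, though not seen in every cluster described below. The median cell was at 661 and 2416 CPM, and 17 of 129 JQ1 cells (13.2%) held 50% of the UMIs, against 129 of 920 (14.0%) in control.

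**Figure D3:**
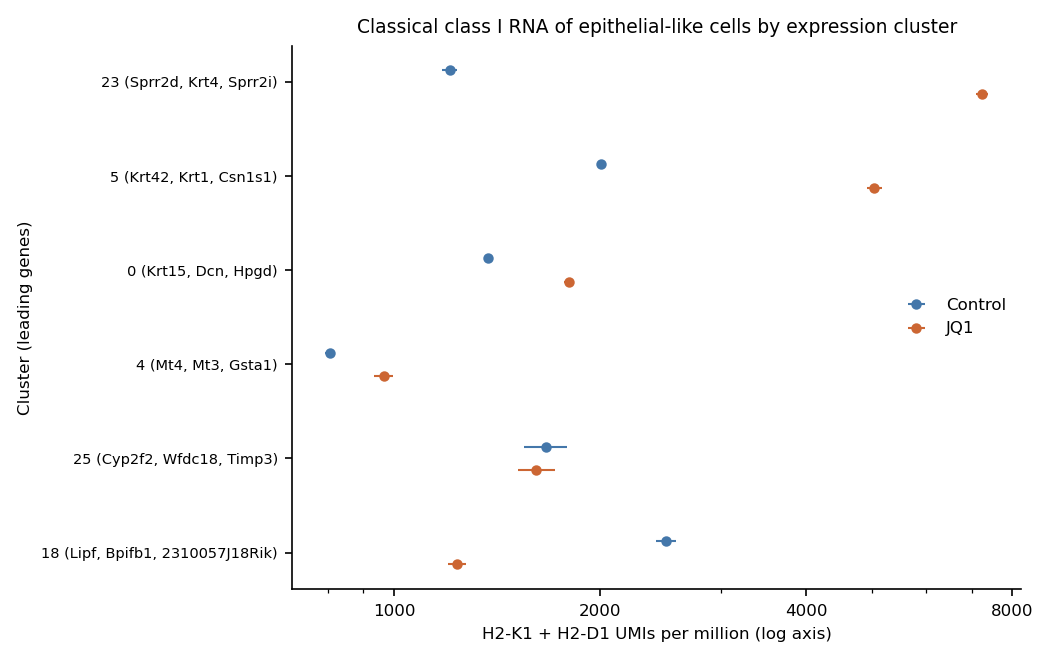
CPM of H2-K1 + H2-D1 (log axis) in epithelial-like cells of 6 expression clusters, labelled by number and leading genes, in the control and the JQ1 library, with 95% Poisson intervals. Cluster 23 (Sprr2d, Krt4, Sprr2i) stood at 1205 and 7244 CPM, and cluster 4 (Mt4, Mt3, Gsta1) at 806 and 964 CPM.

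Clusters found from all variable genes, looked at after the subtype values were seen, placed these cells more closely. Cluster 23, led by the cornified envelope genes Sprr2d and Sprr2i and by Krt4, went from 1205 to 7244 CPM (6.01, 5.82 to 6.21) over 214 control and 49 JQ1 cells. Cluster 5, led by Krt42 and Krt1, went from 2007 to 5036 CPM (2.51). Cluster 4, led by the metallothioneins Mt4 and Mt3, stood at 806 and 964 CPM (1.20), and the basal cluster 0, led by Krt15, at 1372 and 1799 CPM (1.31). Cluster 18, led by Lipf and Bpifb1, went the other way, from 2496 to 1234 CPM (0.494, 0.473 to 0.517) over 82 control and 120 JQ1 cells. Cluster 25, led by Cyp2f2 and Wfdc18, stood at 1665 and 1614 CPM (0.969, 0.881 to 1.07). Suprabasal tongue cells within cluster 4, the larger part of the subtype, differed little (987 and 1032 CPM, 1.05, 0.991 to 1.10). Those within cluster 23, 68 control and 32 JQ1 cells, went from 901 to 7277 CPM (8.08, 7.61 to 8.58). The suprabasal ratio of 3.05 thus joins clusters whose ratios ran from near 1 to near 8. Stress-type cells were uneven as well. Those within cluster 4, 217 control and 29 JQ1 cells, stood at 725 and 752 CPM (1.04, 0.929 to 1.16). Their ratio was 2.23 in cluster 0, 2.51 in cluster 5 and 4.69 in cluster 23. Clusters were formed from the expression of these same cells, so the values are descriptions.

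**Figure D4:**
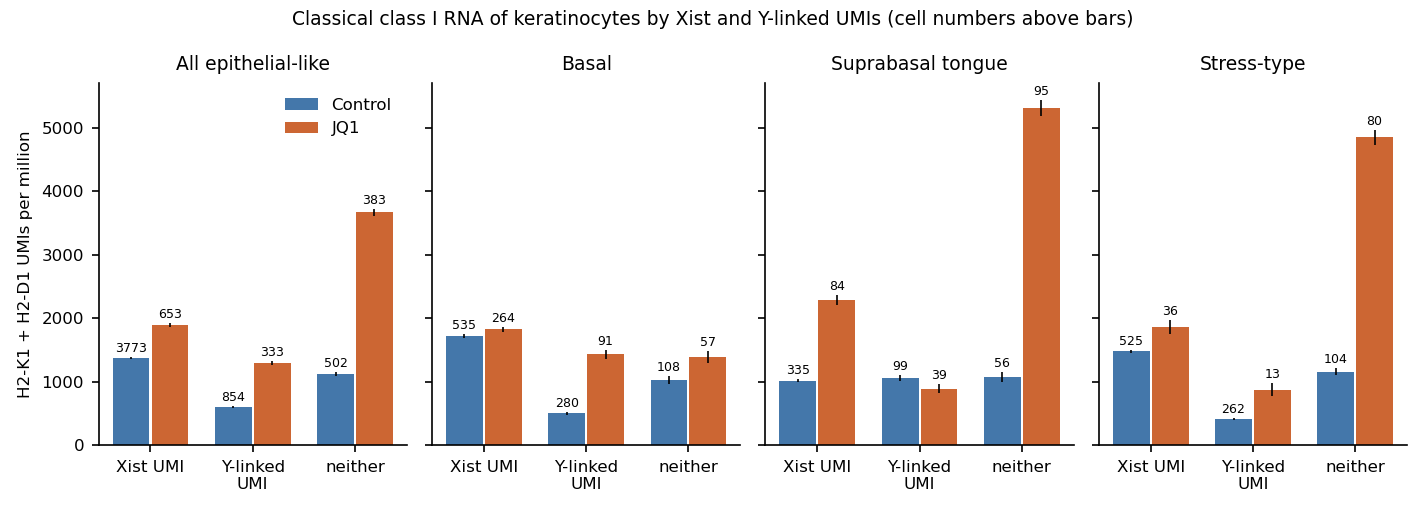
CPM of H2-K1 + H2-D1 in epithelial-like cells and 3 keratinocyte subtypes, split by UMIs of Xist or of 4 Y-linked genes, with 95% Poisson intervals and the number of cells above each bar. In suprabasal tongue and stress-type JQ1 cells with neither kind of UMI the level was 5305 and 4845 CPM, against 1071 and 1152 CPM in control.

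The ratio also depended on which cells were compared by their UMIs of Xist or Y-linked genes, a split made after the data were seen. Epithelial-like cells with Xist alone stood at 1372 CPM in control and 1887 CPM in JQ1 (1.38, 1.35 to 1.40). Cells with Y-linked UMIs alone were lower in both libraries, at 596 and 1287 CPM (2.16, 2.10 to 2.23). Cells with neither stood at 1120 and 3669 CPM (3.28, 3.19 to 3.37). The B2m ratio followed the same order at 1.10, 1.48 and 3.17. Of 7 measured members, 0 were called higher in cells with Xist alone, where 12.1% of all measured genes were. In cells with Y-linked UMIs alone it was 4, against 12.8%, and in cells with neither it was 7, against 8.98%. H2-Q6, among those 4, reached 10 CPM in JQ1 alone (4.61 and 14.9 CPM). No member was called lower in the 3 sets, where 7.17%, 14.9% and 8.89% of all genes were.

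In basal cells the difference between libraries was largest in the Y-linked set. Basal cells with Xist alone stood at 1716 and 1820 CPM (1.06, 1.03 to 1.09), whereas those with Y-linked UMIs went from 498 to 1430 CPM (2.88, 2.70 to 3.06), over 280 control and 91 JQ1 cells. The Y-linked control cells were thus the lowest of these 4 values. H2-Q7 stood at 11.2 CPM in these control cells against 88.7 CPM in JQ1, and Tap1 at 13.8 against 73.2 CPM. The corresponding values in Xist-only basal cells were 117 and 96.4 CPM for H2-Q7 and 59.5 and 64.1 CPM for Tap1.

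In suprabasal tongue cells the sets disagreed in direction. Cells with Xist went from 1016 to 2284 CPM (2.25, 2.15 to 2.35), cells with Y-linked UMIs from 1054 to 890 CPM (0.844, 0.770 to 0.925, 99 and 39 cells), and cells with neither from 1071 to 5305 CPM (4.95, 4.61 to 5.32). In stress-type cells the ratios were 1.255, 2.13 (13 JQ1 cells) and 4.21. For the 6 non-classical genes there they were 0.715 (0.580 to 0.872), 1.42 and 2.64. In stress-type cells with Xist alone, H2-Q6 (0.447, 0.178 to 0.934) and H2-Q7 (0.665, 0.476 to 0.904) passed the limit downward. These rest on 7 and 42 JQ1 UMIs. H2-K1 (1.26), H2-D1 (1.24) and B2m (1.27) stayed over 1 there. The cells with neither kind of UMI thus had the highest JQ1 level in both subtypes. Low depth alone gives such cells, so their share was also counted among cells with at least 10000 UMIs. It was 6.97% (6.21 to 7.80) of 4075 control and 21.4% (18.6 to 24.4) of 808 JQ1 epithelial-like cells. In stress-type cells it was 8.80% and 55.6%, and in suprabasal tongue cells 8.62% and 33.6%. Treatment, animal and the mix of cells cannot be told apart in these libraries, and which animals gave the cells was not tested.

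Vessel cells were compared in the same way. Endothelial-like cells went from 2128 to 3426 CPM of the classical pair (1.61, 1.56 to 1.66), with ratios of 1.64 in Xist-only cells, 1.71 in Y-only cells (30 in control) and 1.38 (1.27 to 1.504) in the 100 control and 491 JQ1 cells with neither. The class ratio fell under the 1.5-fold limit with each cell weighted equally (1.47) or thinned to 1000 UMIs (1.499). H2-K1 went from 1108 to 1906 CPM (1.72), and H2-D1 from 1020 to 1520 CPM (1.49). The Qa-2 genes differed most: H2-Q6 went from 76.1 to 156 CPM (2.04, 1.74 to 2.42) and H2-Q7 from 109 to 209 CPM (1.91, 1.67 to 2.20). The non-classical sum, at 529 and 801 CPM, came to 1.51 (1.42 to 1.61), so that here it nearly kept pace. H2-T22 (1.12) and H2-M3 (1.01) were nearer to 1. In all, 4 of 9 members were called higher and 0 lower, where 8.03% of measured genes were higher and 3.1% lower. Of the peptide loading list 3 of 13 were higher: Tap1 (1.62), Erap1 (1.64) and Psmb10 (1.59).

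Pericyte or smooth muscle-like cells, which wrap small vessels, had the largest classical ratio of the non-epithelial classes with at least 50 cells, from 772 to 1766 CPM (2.29, 2.06 to 2.54). H2-K1 went from 398 to 891 CPM (2.24), H2-D1 from 374 to 875 CPM (2.34) and B2m from 347 to 677 CPM (1.95). Of 8 measured members, 6 were called higher, where 20.7% of all genes were. The other measured member between the limits was H2-T22 (1.31). H2-Q6 was called lower (0.664), where 7.98% of all genes were, but its interval ran from 0.318 to 1.51 on 10 control UMIs. The classical ratio was 2.55 in Xist-only and 1.71 in Y-only cells, the latter from 15 control cells.

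Fibroblast-like cells differed less, from 1606 to 2200 CPM (1.37, 1.33 to 1.41), with B2m at 786 and 1040 CPM (1.32). The Qa-2 genes were again ahead of the classical chains, with H2-Q6 at 32.6 and 53.0 CPM (1.62) and H2-Q7 at 53.2 and 93.0 CPM (1.75). These 2 of 9 members were called higher, and 0 lower, where 5.99% of measured genes were higher and 2.76% lower. In fibroblast-like, endothelial-like and pericyte-like cells all members but H2-Q6 in the last had ratios over 1.

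Leukocytes showed no common direction. T-like cells stood at 5583 and 5731 CPM of the classical pair (1.03, 0.980 to 1.07) and at 1909 and 1971 CPM of B2m (1.03). Their H2-Q6 was at 291 and 420 CPM (1.45, 1.19 to 1.76), and their H2-Q7 at 475 and 615 CPM (1.29). Only H2-M3 was called higher of 9 (1.70, 0.888 to 3.53, on 12 control UMIs), where 18.3% of all genes were. Of the receptors that read class I, 6 were measured in T-like cells. The coreceptor chains Cd8a (108 and 54.6 CPM, 0.505) and Cd8b1 (117 and 61.2 CPM, 0.525) and the CD94 gene Klrd1 (136 and 79.1 CPM, 0.583) were called lower. The NKG2 genes Klrc1 (63.6 and 108 CPM, 1.70) and Klrc2 (25.5 and 60.3 CPM, 2.37) were called higher, where 8.78% of all genes were lower.

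Neutrophil-like cells were the class whose classical level was lower in JQ1, at 2219 and 1670 CPM (0.753, 0.709 to 0.799), a ratio that did not pass the limit. With each cell thinned to 1000 UMIs it came to 0.983, and with each cell weighted equally to 0.901. H2-K1 was at 1076 and 729 CPM (0.678) and H2-D1 at 1142 and 941 CPM (0.824), while B2m stood at 477 and 485 CPM (1.02). Their non-classical RNA was the lowest of the classes with at least 50 control cells (94.04 CPM), and its UMIs were mostly of H2-T23 (66.1 and 91.7 CPM, 1.39). H2-T22 was the member called higher of 5 measured, from 6.35 to 25.3 CPM (3.98, 1.58 to 12.9), on 5 and 43 UMIs, where 29.0% of all genes were. It reached 10 CPM in JQ1 alone. The neutrophil marker list itself stood at 16900 CPM in control and 48030 CPM in JQ1. Macrophage or monocyte-like cells, with 47 control cells, had a classical ratio of 1.24 (1.13 to 1.36). There 2 of 8 members were called higher (H2-Q7 1.74, H2-T22 1.51) and 1 lower (H2-Q6 0.587), where 21.1% and 13.7% of all genes were.

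Gland-like cells had little light chain RNA. B2m was at 174 CPM in control and 99.9 CPM in JQ1 (0.576, 0.498 to 0.668), against 347 to 1909 CPM in the other control classes shown. The classical pair stood at 1729 and 1842 CPM (1.07, 1.02 to 1.11), within the range of the other classes. B2m was detected in 16.7% (9.18 to 26.8) of thinned control and 10.2% (8.38 to 12.2) of thinned JQ1 gland-like cells, whereas H2-K1 was detected in 67.9% and 73.8%. The JQ1 share of B2m was not above that of erythroid-like cells (10.11%, 6.10 to 15.5), the background level, so neither it nor the ratio is read as expression or as a change. Of 7 measured members 2 were called lower, B2m and H2-Q7 (16.6 and 10.0 CPM, 0.603), and 0 higher. Over all genes of the class 5.79% were called lower and 33.0% higher, and the median log2 ratio of all genes was 0.35, so that both lie further below that median. The control value rests on 81 cells, and 1133 JQ1 cells entered. Schwann-like cells had 28 control cells with 111 classical UMIs, against 839 JQ1 cells. Their ratio was 1.95 (1.62 to 2.38), and 7 of 9 members were called higher and 0 lower, where 40.4% and 7.03% of all genes were. H2-Q6 and H2-M3 were without a UMI in the control cells.

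**Figure D5:**
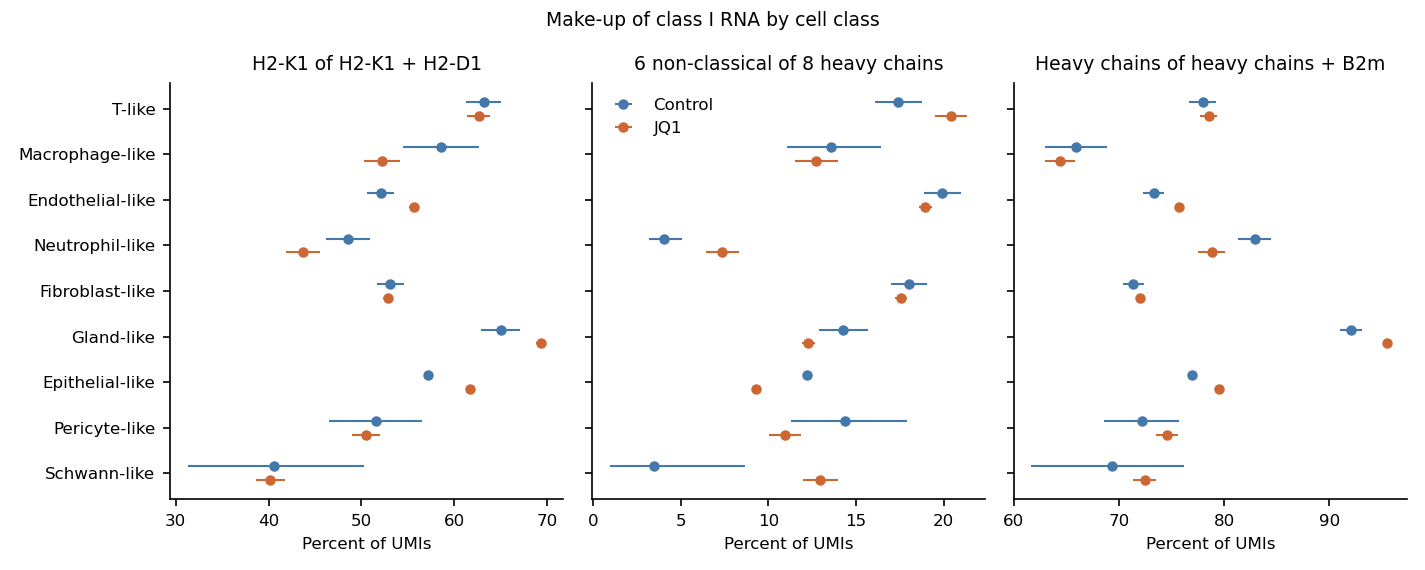
Percent of UMIs, with 95% exact binomial intervals, for H2-K1 among H2-K1 + H2-D1 (left), for the 6 non-classical genes among all 8 heavy chains (middle) and for heavy chains among heavy chains and B2m (right), by cell class and library. Gland-like cells had the highest heavy chain share (92.1% and 95.5%), and neutrophil-like cells had non-classical shares of 4.07% and 7.34%.

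The make-up of class I RNA differed more between cell classes than between libraries, among classes with at least 50 cells in both. These shares are of UMIs, which 3′ capture may weight differently between genes, so only shifts of the same share are compared. H2-K1 made up 63.2% and 62.6% of the classical pair in T-like cells, 65.0% and 69.3% in gland-like cells, 53.1% and 52.8% in fibroblast-like cells and 48.5% and 43.7% in neutrophil-like cells. In epithelial-like cells it went from 57.2% (56.9 to 57.5) to 61.7% (61.2 to 62.2), and in endothelial-like cells from 52.1% to 55.6%. The H2-K1 share was thus higher in JQ1 in epithelial-like, endothelial-like and gland-like cells and lower in JQ1 in neutrophil-like cells.

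The non-classical share of all heavy chains was 19.9% and 18.9% in endothelial-like, 18.0% and 17.6% in fibroblast-like and 17.4% and 20.4% in T-like cells. In epithelial-like cells it was 12.2% (12.0 to 12.4) in control and 9.31% (9.05 to 9.57) in JQ1, and in stress-type cells 12.6% and 7.76%. In neutrophil-like cells it was 4.07% and 7.34%. Shares of single non-classical genes also differed by class. In epithelial-like cells H2-Q7 was 35.9% and 36.8% of the non-classical UMIs, and in fibroblast-like cells H2-T23 was 38.1% and 33.6%. In endothelial-like cells H2-Q6 and H2-Q7 made up more of the non-classical UMIs in JQ1, H2-Q6 14.4% and 19.4% and H2-Q7 20.6% and 26.1%, and H2-T22 made up less (23.5% and 17.3%).

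The genes whose level over the 18 points of 9 classes in each of 2 libraries was most like that of the classical pair were Ipmk (Pearson r = 0.906), Ogfr (0.878), Psmb8 (0.852), Tap1 (0.839) and Etv6 (0.839), of 8930 genes ranked. The points share libraries, depth and free RNA, so these correlations are descriptions. Among the members B2m had r = 0.702 and H2-T22 the lowest, 0.427.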

How the data were processed

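RNA of single cells was measured in 1 control and 1 JQ1 library of the Chromium 3′ chemistry. Cell Ranger (3.1.0), Seurat (4.0.0) and the build mm10 are named in the submitters' processing notes. For the settings, the annotation release and any barcode filter, no source used here gives a value. The deposited matrices hold UMI counts per gene and barcode, whole numbers without normalization.

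Cells were kept from 200 genes upward and with mitochondrial UMIs below 20%, which left out 1485 control and 1765 JQ1 barcodes. Scrublet (scanpy 1.11.5), run on each library by itself, marked 119 and 424 doublets, which were removed. Classes were gated by a minimum number of distinct markers per cell (5 for epithelial, 3 for T), with gland and erythroid cells gated by a UMI share. Cells passing several gates (230 and 1172) or none (523 and 1372) were left out. Keratinocyte subtypes took the highest marker score of at least 0.5. No MHC class I gene entered a gate. Clusters (Leiden, leidenalg 0.10.2, resolution 1.0, 2000 variable genes, 30 principal components, 15 neighbours) used both libraries together.

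Sums of UMIs over the cells of a class in a library were expressed as CPM. Ratios have exact conditional, levels exact Poisson and shares exact Clopper-Pearson intervals at 95%, covering counting error only. No test was made, because 1 library per group leaves no replicates, and where nothing is known of the mice behind a library, none could be. For shares of cells with a UMI, cells were thinned to 1000 UMIs and shallower cells left out (17 control and 31 JQ1 epithelial-like cells). The members and gene lists were chosen with earlier results of these data known. All 9 members are named in full where a result turns on them. Of each other list up to 4 measured genes with the largest difference in epithelial-like cells are named, and others named beside them were chosen after their values were seen. Some list genes and 1 of the 8 clusters with at least 50 epithelial-like cells are not reported here, and another with 2 JQ1 cells was not compared. Ratios and intervals were run on simulated sums with Poisson counting error, the model that the intervals assume. That run does not cover the spread between cells. Python 3.11.15, numpy 2.4.6, scipy 1.17.1 and pandas 2.3.3 were used. Alternatives changed the cell filter, doublet removal, gates, scaling, summing, depth, free RNA, mix of subtypes, member filter and fold limit. The splits by Xist and Y-linked UMIs and by cluster were added after the data were seen.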

Additional observations from a re-analysis of the deposited data

Results flagged for a closer look

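The JQ1 over control ratio of B2m was 1.95 in pericyte or smooth muscle-like cells and 0.576 in gland-like cells, from 121 and 81 control cells. The share of JQ1 gland-like cells with B2m was not above that of erythroid-like cells, the background level. The gland-like ratio is thus not read as a change. The difference between these ratios was not tested, since each rests on 1 library per treatment.

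In suprabasal tongue cells the classical pair was 2.25-fold higher in JQ1 among cells with Xist UMIs and 0.844-fold among cells with Y-linked UMIs. In cornifying cells the order was turned, with 0.905 among cells with Xist UMIs and 1.92 among cells with Y-linked UMIs (38 and 25 JQ1 cells). Neither difference was tested.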

How the results depend on the processing

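Over epithelial-like cells the JQ1 over control ratio was 1.78 for the classical pair, 1.32 for the non-classical genes and 1.48 for B2m, with 2 members called higher. It kept its direction under all alternatives run, while its size moved. A stricter cell filter, no filter and kept doublet calls moved these values by less than the counting interval. Clusters in place of gates gave 1.65, 1.21, 1.31 and 1 member. A gate 1 marker stricter gave 1.86, 1.37, 1.57 and 4 members. The size factor gave 1.76 (classical pair) and leaving out mitochondrial genes 1.80. With each cell weighted equally the values were 1.47, 1.14, 1.26 and 1 member, and with cells thinned to 1000 UMIs 1.52, 1.17, 1.24 and 1 member. Both also left 1 non-epithelial class, pericyte-like cells, with the classical pair at 1.5-fold in place of 2, as endothelial-like cells fell to 1.47 and 1.499. Equal subtype mix gave 1.90 for the classical pair and 1.83 for B2m. These give weight to the Krt42 and Stmn2 type, whose JQ1 level rests on 11 cells. They are not read as a larger difference. Without the member filter 4 members were higher, and at the lower fold limit it was 6. Of the alternatives added after the data were seen, cells with Xist alone gave 1.38, 1.14, 1.10 and 0 members, and cells with Y-linked UMIs alone 2.16 (classical), 1.80 (non-classical) and 4 members. Cells with neither gave 3.28, 2.13, 3.17 and 7 members. In these 3 sets 12.1%, 12.8% and 8.98% of all genes were called higher. Leaving out the Krt42 and Stmn2 type and duct-type cells gave 1.82 (classical) and 1.69 (B2m). The suprabasal ratio reversed from 3.05 to 0.844 in cells with Y-linked UMIs alone. Equal cell weight lowered it to 2.12. The cause of these shifts was not tested. No replicate could be left out with 1 library per treatment. No paired analysis was possible because the labels give no replicate numbers. Counting error limits H2-Q4 and H2-M3 in keratinocytes and every gene of Schwann-like and macrophage-like control cells.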
